A study of Mus musculus with 14 samples.

Results

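The genes that encode the proteins of the cytosolic ribosome were followed through 14 RNA-seq libraries of MC-38 cells, a mouse colon carcinoma line. Members were chosen by symbol alone. They are the symbols made of Rpl or Rps, a number and at most 1 letter a, b, l or x, together with Rplp0, Rplp1, Rplp2 and Rpsa, without the Rps6k kinases and the symbols of processed pseudogenes. Of 24411 gene symbols in the deposited tables, 81 met this rule. They divide into 30 proteins of the small (40S) subunit, 43 of the large (60S) subunit, 3 proteins of the P stalk and 5 paralogs (Rpl3l, Rpl10l, Rpl39l, Rps27l and Rps4l). The rule used no measured value, though earlier results of these data were known when the members were chosen.

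In culture, 3 libraries came from MC-38 cells alone and 3 from MC-38 cells exposed to NET chromatin. NETs (neutrophil extracellular traps) are webs of DNA and granule proteins that neutrophils expel, and here the chromatin was collected from neutrophils in culture. The other 8 libraries came from GFP-expressing MC-38 cells, wild type themselves, that were flow-sorted from lung tumours on day 30. The host mice were wild type (WT) or lacked PAD4 (PAD4 KO), the histone-citrullinating enzyme that neutrophils need to form NETs, and each genotype was studied as a control or after laparotomy on days 0 and 10, with 2 libraries in each of these 4 groups. Strain and age of the hosts are not in the labels. Nor do the labels state that replicates were separate cultures or mice. The p-values therefore speak of the spread among these libraries, which may be technical.

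Each ribosome holds 1 copy of nearly every ribosomal protein, and the P stalk, which recruits elongation factors, is the exception with several copies of Rplp1 and Rplp2 on Rplp0. Most vertebrate ribosomal protein mRNAs start with a C followed by an unbroken run of pyrimidines, the terminal oligopyrimidine (TOP) motif, through which mTORC1 and LARP1 control their translation and storage. The same start is found on mRNAs of several translation factors and on the host RNAs of many small nucleolar RNAs (snoRNAs). Cells that grow fast spend a large part of their mRNA on this class, and free RPL5 and RPL11 bind MDM2 and stabilise p53 when ribosome assembly fails.

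The annotated starts of several members show the TOP run, and a few are printed because this start defines the mRNA class described here. RefSeq promoters (assembly GRCm38.p6) were matched for 60 of the 81 members. Each window holds 25 bases read along the gene's own strand, 8 before the annotated transcript start and 17 from it on, and the capitals mark the C and the pyrimidines that follow it without a break.
Rps6, chr4:86857351-86857375, minus strand: agtcgggcCTCTTTTTCgtgacgcc
Rps10, chr17:27635228-27635252, minus strand: gcacgcccCTTCCTTTCCagcctcc
Rps18, chr17:33955649-33955673, minus strand: cttccgctCTCTCTTCCacaggagg
Rps27, chr3:90213632-90213656, minus strand: ctttcgctCCTTTCCggcggtgacg
Rpl15, chr14:18270970-18270994, minus strand: aaagccttCTTCCTTTCCTCTggcg
Rpl28, chr7:4792957-4792981, plus strand: tcgtgtctCTCTTTCCgtctccggc
Rplp2, chr7:141447643-141447667, plus strand: gcgtcttcCTTTCgccgccggacgc
The next 3 members have no such run at the annotated first base. Rplp0 had the highest mean CPM of all members, and the paralogs Rpl3l and Rpl10l had at most 9 reads in any library.
Rplp0, chr5:115559459-115559483, plus strand: ggtttcgaggaccgcctggttctcc
Rpl3l, chr17:24727818-24727842, plus strand: ctagctctgtcatttgacctctggt
Rpl10l, chr12:66284385-66284409, minus strand: tccattttgcggctggcggtgggca

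A C followed by at least 4 pyrimidines, searched on the gene's own strand, began exactly at the annotated first base in 13 of 60 members (21.7%), against 3.01% of 27025 genes with a promoter. Within 5 bases of that start the run was found in 46.7% of members and in 21.2% of all genes. Within 20 bases these values were 83.3% and 53.3%. The wider search thus raised the matches in all genes as well, and the part of start annotation in them was not tested. None of 69 mitochondrial ribosomal protein genes and none of 36 ribosome biogenesis genes had it at the first base. Among the genes listed as TOP-type translation factors it was there in 3 of 17, and among noncoding snoRNA hosts in 2 of 9. Over the 300 bases of the promoter window and both strands, CCGGAAG, the core of sites bound by ETS-family factors, was present in 41.7% of members, in 37.7% of mitochondrial ribosomal protein genes, in 47.1% of 17 RNA polymerase I genes and in 9.93% of all genes. AAGATGG, the core of the YY1 site, was present in 15% of members, 18.8% of mitochondrial ribosomal protein genes and 7.28% of all genes. These are matches of letters, and a missing match says only that the letters are not in the window.

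Before the comparisons, the libraries' depth and makeup bear on how the values are read. Gene counts summed to 6.39 to 20.6 M reads per culture library and 10.8 to 31.3 M per tumour library, of which members held 0.475 to 1.59 M. Levels below are counts per 1e+06 gene counts (CPM) of that library, and per kilobase of transcript (CPM per kb) where genes are compared with each other. In the sorted tumour cells, summed markers of other cells varied between replicates. The 10 pan-leukocyte markers summed to 165 and 1079 CPM in the WT control libraries and to 115 to 328 CPM in the other 6 tumour libraries. Lung epithelial markers summed to 135 and 829 CPM in the same 2 libraries and to 10.9 to 415 CPM in the others. Endothelial markers summed to 213 and 718 CPM in these libraries and to 127 to 405 CPM in the other 6. Fibroblast markers were the highest of these lists, at 3094 to 11104 CPM in tumours against 146 to 157 CPM in culture, and PAD4 KO laparotomy replicate 2 had the highest value, with 5055 CPM in replicate 1. WT control replicate 2 stands apart by its leukocyte, lung and endothelial markers. The 9 colon epithelium and carcinoma markers, which include Epcam, Krt8, Krt18 and Cdh1, summed to only 0.97 to 1.82 CPM in culture and 1.85 to 33.5 CPM in tumours, so these libraries lack the epithelial markers of the labelled tumour type. Padi4, deleted in the hosts and not in the sorted cells, was at 59.8 to 75.03 CPM in culture, 30.8 and 30.7 CPM in the 2 WT laparotomy libraries and 2.10 to 7.69 CPM in the other tumour libraries, and it is no check of the host labels here.

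In untreated culture the 73 members with a mean of at least 10 CPM over the 14 libraries spanned 64.7 CPM (Rps27l) to 3235 CPM (Rplp0), with a median of 670 CPM. Per kilobase of the principal GENCODE transcript (vM21, GRCm38) the median was 916 CPM per kb, and 52 of the 73 lay within 2-fold of it. Rplp0 was highest at 2383 CPM per kb, and Rps15a lowest at 99.2 CPM per kb on a principal transcript of 5130 bases, the next being Rps27l at 129.8 CPM per kb. Rpl4 (2482, 2404 and 2297 CPM) and Rps2 (1768, 2025 and 1846 CPM) followed Rplp0 in mean CPM over all libraries. The value of Rps15a may be too low because of that length, and from Rps27l to Rplp0 the levels per kilobase spanned an 18.4-fold range.

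The other 8 members averaged less than 10 CPM, and they are of 2 kinds. Rpl3l and Rpl10l, paralogs of Rpl3 and Rpl10 known from muscle and testis, had 48 and 1 reads over all 14 libraries, and Rpl39l, the testis paralog of Rpl39, had 82, of which 57 were in PAD4 KO laparotomy replicate 2. Rps4l, an Rps4x paralog, had 170 reads, 90 of them in WT control replicate 2. The other 4, Rpl26, Rpl30, Rpl34 and Rps27, are core subunits of every ribosome, yet Rpl26 had 0 reads in every library, Rpl30 162 in all, Rps27 343 and Rpl34 826. Their transcripts share much sequence with transcripts of other annotated genes. Of all 50-base windows, 98.6% in Rps27, 76.4% in Rpl30, 71.3% in Rpl26 and 50.6% in Rpl34 were found in another gene's transcript. The median over the 73 other members was 54.5% and the highest value 95.1%, in Rpl35, so shared windows did not separate the 4 low members from the rest, and the part of read assignment in their low counts was not tested. Values for members with shared windows are uncertain to the extent that the counting could split their reads.

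With NET chromatin, reads of ribosomal protein genes took a larger share of the libraries. The summed share was 5.93, 5.70 and 5.52% of gene counts in the control cultures and 7.46, 7.56 and 7.69% in the NET cultures. The 3 NET libraries lay close together and all above the controls, with means of 5.72% ± 0.207 (SD, n = 3) and 7.57% ± 0.119 (SD, n = 3), a ratio of 1.32. Small subunit genes went from 2.23 to 2.95%, large subunit genes from 2.98 to 3.95% and the P stalk from 0.494 to 0.664% of gene counts. The 77 genes of the mitochondrial ribosome, which is built from a separate set of proteins, were at 0.283% ± 0.0034 (SD, n = 3) and 0.272% ± 0.0055 (SD, n = 3).

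**Figure D1:**
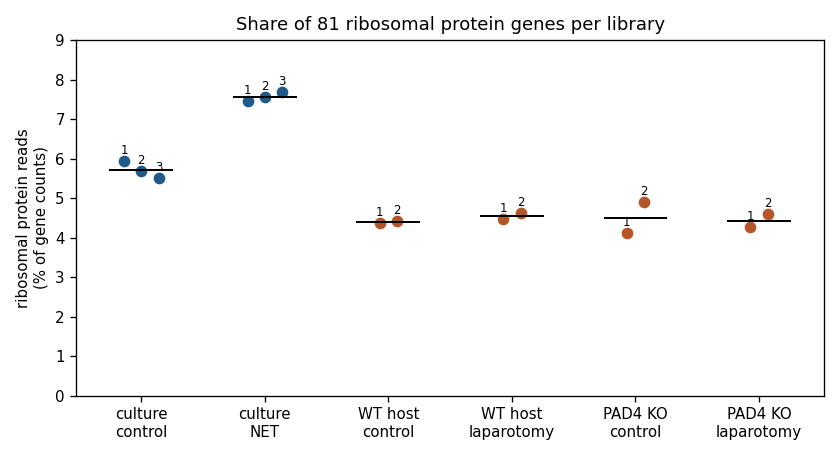
Summed share of the 81 ribosomal protein genes in percent of gene counts, 1 numbered point per library, with a line at the mean of each group. The 3 NET cultures sit between 7.46 and 7.69%, above the control cultures at 5.52 to 5.93%, and the 8 tumour libraries lie between 4.12 and 4.90%.

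Every tested member rose with NET chromatin. By edgeR's quasi-likelihood test with Benjamini-Hochberg adjustment over 11753 genes at a threshold of 0.05, 75 of 75 tested members were higher and 0 lower, against 26.3% of all tested genes higher and 27.8% lower. The 6 untested members were Rpl3l, Rpl10l, Rpl26, Rpl30, Rpl39l and Rps4l. The median log2 fold change of the members was 0.56 and that of all tested genes 0.00, and 7.25% of the other genes lay above the members' median. The members moved by similar amounts: 73 of 75 had log2 fold changes between 0.38 and 0.69, and Rps27 (1.09) and Rpl34 (1.43) lay above that range. All 30 small subunit genes (median 0.56), all 41 tested large subunit genes (median 0.56) and all 3 P stalk genes (median 0.61) passed.

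These log2 fold changes depend on the scaling. They use TMM factors, which centre the bulk of genes near 0, whereas scaling by library totals put the median of all genes at -0.16 and that of the members at 0.40. With totals 1640 genes were higher and 4777 lower, in place of 3093 and 3270, and 74 of 75 members remained higher, Rps29 (0.22, adjusted p = 0.0661) being the exception. In plain CPM, 73 of 75 members were higher in every NET library than in every control library, against 16.9% of all tested genes. Rpl27 and Rps29 were the 2 members whose groups overlapped. With TMM-scaled CPM no member overlapped, against 29.5% of all genes higher without overlap.

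**Figure D2:**
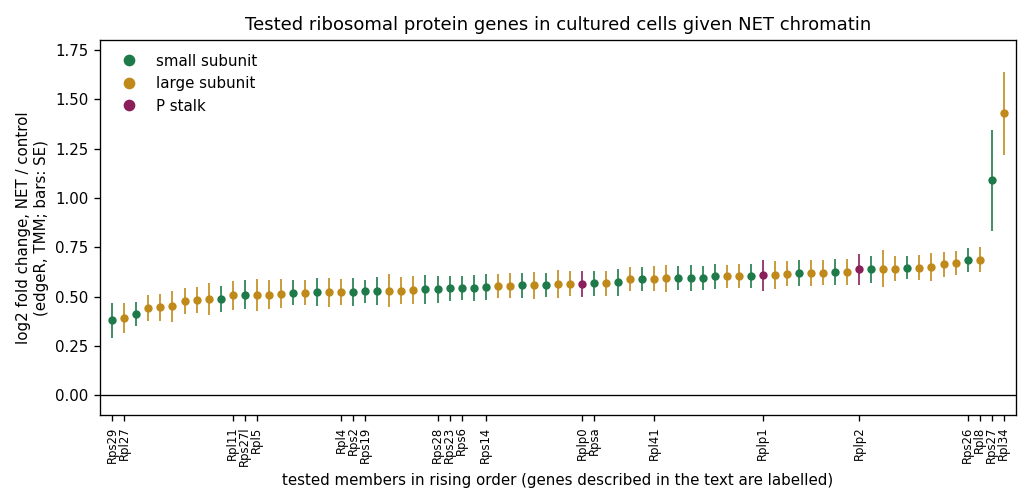
Log2 fold change of NET over control culture (edgeR with TMM factors) for the 75 tested members in rising order, with the genes described in the text labelled, bars of 1 standard error and colours for the small subunit, large subunit and P stalk (Rps27l is drawn with the small subunit). All points lie above 0, from 0.38 for Rps29 to 1.43 for Rpl34, and 73 lie at 0.69 or below.

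In the P stalk, Rplp0 (chr5:115559467-115563727, plus strand) was at 3176, 3333 and 3197 CPM in the controls and at 4132, 4306 and 4431 CPM with NET chromatin. The groups did not overlap, and the log2 fold change was 0.57 ± 0.07 (SE, edgeR adjusted p = 2.18e-06). Rplp1, which docks onto it, averaged 1104 ± 133 CPM in controls and 1509 ± 52 CPM with NET chromatin (SD, n = 3 each), which gave 0.61 on the log2 scale. Rplp2, its partner in the stalk, averaged 600.5 ± 67 and 838 ± 41 CPM (SD, n = 3 each), with 0.64.

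Among large subunit genes, Rpl8 (chr15:76904078-76906314, plus strand), whose protein lies close to the peptidyl transferase centre, was at 1135, 1208 and 1152 CPM in controls and 1685, 1612 and 1744 CPM with NET chromatin. Its log2 fold change of 0.69 ± 0.06 (SE, edgeR adjusted p = 2.19e-07) was the highest among the 73 members of at least 10 CPM. Rpl4, which lines the exit tunnel for the new protein, rose from 2482, 2404 and 2297 CPM to 3011, 3131 and 3097 CPM, by 0.52 ± 0.06 on the log2 scale. Rpl5 and Rpl11, which form a particle with 5S rRNA and can hold MDM2, both changed by 0.51, slightly under the members' median. Rpl5 averaged 805 ± 110 CPM in controls and 1024 ± 47 CPM with NET chromatin (SD, n = 3 each), and Rpl11 480 ± 54 and 610 ± 19 CPM (SD, n = 3 each). Rpl27 gave the smallest log2 fold change of the large subunit, 0.39 ± 0.08 (SE, edgeR adjusted p = 0.000366), at 241, 201 and 206 CPM in controls against 236, 269 and 256 CPM. Control replicate 1 lay above NET replicate 1 for this gene.

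Among small subunit genes, Rps26, which lies at the mRNA exit site, was at 631, 670 and 700 CPM in controls and 959, 961 and 962 CPM with NET chromatin. That is a log2 fold change of 0.68 ± 0.06 (SE, edgeR adjusted p = 2.03e-07). Rps2, near the mRNA entrance, changed by 0.52 ± 0.07, from 1768, 2025 and 1846 CPM to 2361, 2349 and 2551 CPM. Rps6, the subunit phosphorylated by the S6 kinases downstream of mTORC1, was at 565, 519 and 522 CPM and then at 695, 712 and 690 CPM, with a log2 fold change of 0.54 ± 0.06. Rpsa, also known as the 67 kDa laminin receptor precursor, was at 1455, 1528 and 1412 CPM and then at 1886, 1955 and 1991 CPM, with 0.57 ± 0.07. Rps19, the gene most often mutated in Diamond-Blackfan anaemia, an inherited failure of red cell production, averaged 419 ± 17 and 540.3 ± 7.8 CPM (SD, n = 3 each), with 0.53 ± 0.06. Of 17 members linked to that disease 16 were tested, and 16 were higher with a median of 0.52. Rps29 gave the smallest change of all members, 0.38 ± 0.09 (SE, edgeR adjusted p = 0.00204), at 459, 334 and 362 CPM in controls and 472, 416 and 455 CPM with NET chromatin. Control replicate 1 again lay within the NET range.

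Rps27l, the p53-inducible paralog of Rps27 and the only paralog with enough reads to be tested in culture, was at 70.0, 60.7 and 63.6 CPM in controls and at 84.8, 76.2 and 85.2 CPM with NET chromatin. It moved like the core members, by 0.51 ± 0.07 on the log2 scale (SE, edgeR adjusted p = 2.34e-05). The 2 members with the largest fold changes were both low in reads. Rpl34 was at 2.05, 3.35 and 2.59 CPM in controls and at 5.97, 5.32 and 7.57 CPM with NET chromatin, from 18 to 156 reads a library, with a log2 fold change of 1.43 ± 0.21 (SE, edgeR adjusted p = 2.40e-05). Rps27 was at 1.59, 1.06 and 1.78 CPM and then at 2.46, 2.82 and 3.01 CPM, from 13 to 62 reads a library, with 1.09 ± 0.26 (SE, edgeR adjusted p = 0.00177). Their groups did not overlap, but with 98.6 and 50.6% of windows shared in Rps27 and Rpl34, reads from other genes' copies cannot be told apart in those windows. In a fit of all 14 libraries together, Rps27 (1.08, adjusted p = 0.0908) and Rps29 (0.39, adjusted p = 0.0749) did not pass, and 73 of 78 members were higher, against 12.9% of all genes.

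The fold change differed little with what the members share in sequence. Members with at least 50% of their windows shared with other genes (42 members of at least 10 CPM) and members under 50% (31) had the same median log2 fold change, 0.56. Members with the TOP run exactly at the annotated first base, such as Rps6, Rps18 and Rpl28 above, had a median of 0.59 (12 members), and members in the promoter table without it one of 0.54 (42 members). The ranges of these last 2 sets overlapped widely, from 0.51 to 0.64 and from 0.39 to 0.68.

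Ribosomal protein genes whose symbols fall outside the rule were read in the same way. Of 7 tested, 6 were higher and 1 lower, against 26.3% and 27.8% of all tested genes. Fau, which encodes RPS30 fused to a ubiquitin-like protein, went from 348 ± 5.6 to 502 ± 15 CPM (SD, n = 3 each), or by 0.69 ± 0.06 on the log2 scale (SE, edgeR adjusted p = 1.41e-07). Rps3a1, a small subunit protein, changed by 0.69 ± 0.07. The remaining one, Rpl7l1, a paralog that acts in assembly of the large subunit, fell from 42.7 ± 4.2 to 23.9 ± 2.1 CPM (SD, n = 3 each), and its log2 fold change was -0.67 ± 0.10 (SE, edgeR adjusted p = 1.90e-05).

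Genes of the same mRNA class in other parts of translation also rose. Of 24 translation factors and other genes known for a TOP start, 23 were higher with NET chromatin and 0 lower, with a median log2 fold change of 0.57. Of all tested genes 26.3% were higher and 27.8% lower. Tpt1, a growth-linked protein with a classical TOP mRNA, went from 975 ± 15 to 1415 ± 36 CPM (SD, n = 3 each), by 0.70 ± 0.06. Eif4a2, an RNA helicase of translation initiation, went from 317 ± 1.5 to 500.3 ± 56 CPM (SD, n = 3 each), by 0.82 ± 0.08. Vim, the intermediate filament gene on the same list, did not pass (0.20, edgeR adjusted p = 0.0595). With library totals 20 of the 24 were higher and 0 lower, against 14% and 40.6% of all genes. Of 9 noncoding snoRNA hosts 8 were higher and 1 lower under both scalings, against the same shares of all genes. Gas5, which carries many box C/D snoRNAs in its introns, went from 414 ± 58 to 712 ± 15 CPM (SD, n = 3 each), by 0.94 ± 0.08 (SE, edgeR adjusted p = 8.96e-08), and Snhg3 changed by 1.00 ± 0.10. Snhg17 was the one that fell, by 0.44 on the log2 scale.

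Genes that build ribosomes or switch their synthesis gave mixed calls in the same libraries. Their counts are read against all tested genes, of which 26.3% were higher and 27.8% lower, or 14% and 40.6% with library totals, and several lie near or below these shares. Of 41 ribosome biogenesis genes 14 were higher and 4 lower (median log2 fold change 0.10), and with library totals 5 were higher and 6 lower (median -0.05). Nop56, a core protein of box C/D snoRNPs, was higher by 0.56 ± 0.06, and Gnl3, nucleostemin, by 0.46 ± 0.07. Of 17 genes of RNA polymerase I and its factors 6 were higher and 4 lower (median -0.02), or 2 and 6 with totals. Taf1d and Taf1c, both subunits of the promoter factor SL1, went in opposite directions, by 0.86 and -1.08. Of 16 genes of mTORC1 and TOP control 3 were higher and 1 lower (median 0.06), or 1 and 5 with totals, with Eif4e, the cap-binding protein, at 0.52 ± 0.07 and Rptor, which brings substrates to mTORC1, at -0.54 ± 0.07. Of 77 mitochondrial ribosomal protein genes 19 were higher and 8 lower (median 0.09), or 9 and 15 with totals, led by Mrpl33 (1.06 ± 0.08) and Mrps2 (-0.73 ± 0.10).

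**Figure D3:**
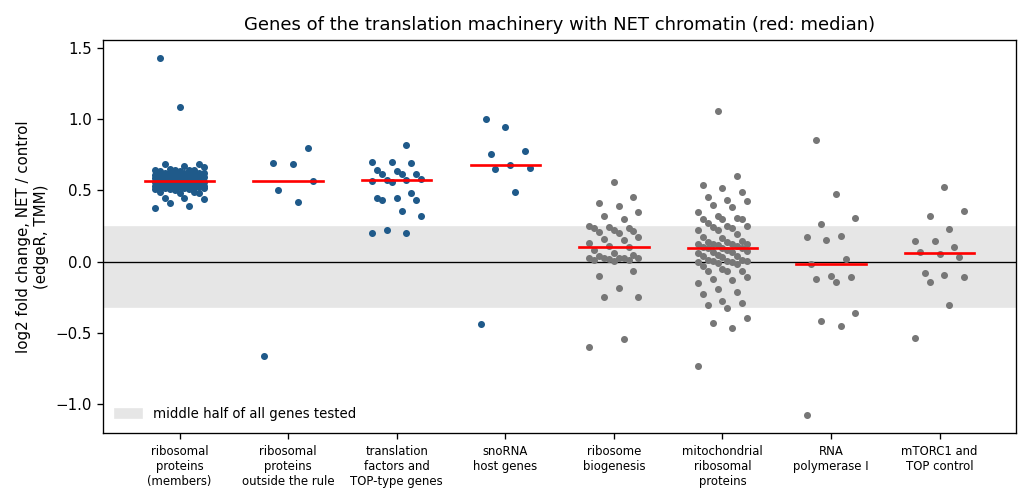
Log2 fold change of NET over control culture (edgeR with TMM factors), 1 point per tested gene, for the ribosomal protein genes and 7 other lists of the translation machinery, with a red line at each median. The first 4 lists (blue) have medians of 0.56 to 0.68, and the last 4 (grey) have medians of -0.02 to 0.10, inside the shaded band that holds the middle 50% of all tested genes.

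Other measures moved with NET chromatin in the same libraries. The 10 pan-leukocyte markers summed to 5.80 to 6.81 CPM in controls, with 2 to 5 of them at 0. With NET chromatin they summed to 17.4 to 18.5 CPM, with 0 of them at 0. Monocyte and macrophage markers summed to 94.96 to 113 CPM and then to 145 to 163 CPM, most of it Cd68, with Adgre1 and Csf1r at 0 in all 3 controls and at 0.53 to 1.88 CPM in the NET libraries, and with C1qa and C1qc at 0 in all 6 libraries. Neutrophil markers summed to 9.63 to 10.1 and then to 14.7 to 15.5 CPM, most of it Mmp9, with Retnlg and Ngp at 0 in all 6 libraries. T, NK and B cell markers summed to 0.91 to 1.55 and then to 2.04 to 2.82 CPM. Erythroid markers summed to 0.91 to 1.70 and then to 2.19 to 2.69 CPM, most of it Alas2. Lung epithelial markers summed to 2.11 to 2.37 and then to 1.52 to 2.33 CPM. Endothelial markers summed to 33.9 to 36.0 and then to 26.6 to 32.3 CPM, most of it Egfl7. Fibroblast markers summed to 149 to 156 and then to 146 to 157 CPM. These sums did not rise, but genes within them moved both ways. By edgeR's test 1 of 2 tested endothelial genes was higher and 0 lower, or 1 and 1 with library totals. Of 4 tested fibroblast genes 2 were higher and 2 lower, or 1 and 2 with totals. Dcn was at 12.5 to 13.8 and then at 32.9 to 35.5 CPM. Col3a1 was at 38.2 to 40.7 and then at 13.9 to 19.1 CPM. Reads that fell in no counted feature made up 17.9% ± 0.33 (SD, n = 3) of all reads in controls and 22.6% ± 1.19 (SD, n = 3) with NET chromatin. Unmapped reads were 5.94, 7.04 and 6.67% of all reads in controls and 9.66, 11.5 and 8.45% with NET chromatin, without overlap. When reads in no feature were added to the denominator, the members' share was 4.49% in controls and 5.43% with NET chromatin. The part of these shifts in the result was not tested beyond these values.

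In tumour cells, no ribosomal protein gene passed edgeR's test in any comparison. The question there is whether laparotomy, host PAD4 or both together moved these genes in MC-38 cells grown in the lung. The summed share was 4.38 and 4.43% of gene counts in WT control libraries, 4.47 and 4.62% after laparotomy in WT hosts, 4.12 and 4.90% in PAD4 KO controls and 4.27 and 4.60% after laparotomy in PAD4 KO hosts. The 4 groups overlapped except that both WT laparotomy libraries lay above both WT controls, and with reads in no feature added to the total those groups overlapped too (3.71 and 3.78% in controls, 3.74 and 3.83% after laparotomy). Means were 4.40% ± 0.0377, 4.54% ± 0.107, 4.51% ± 0.548 and 4.43% ± 0.233 (SD, n = 2 each) in that order. In bulk RNA a change in the number of cells and a change in RNA per cell cannot be told apart.

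By edgeR's quasi-likelihood test over 14615 genes in the 8 tumour libraries, 0 of 78 tested members passed in any of 5 comparisons. For laparotomy in WT hosts the background was 0.0547% of all genes called, and 1 of 78 members had an unadjusted p under 0.05 against 18.8% of all genes. For laparotomy in PAD4 KO hosts these values were 0.52%, 2 members and 15.7%, and for the difference between the 2 laparotomy effects 0.677%, 2 members and 19.2%. For PAD4 KO against WT controls they were 0.116%, 2 members and 16.3%, and for PAD4 KO against WT hosts after laparotomy 0.0205%, 1 member and 13.4%. Few genes of any kind passed edgeR's test in these 4 groups of 2, so its counts of 0 are close to the background and are no result about the members.

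DESeq2 called more genes in the same libraries, and few of them were members. After laparotomy in WT hosts it called 1 member, lower (Rps4l, -3.43, adjusted p = 0.0243), against 8.42% of all genes called. In the difference it called 1, higher (Rpl41, 0.43, adjusted p = 0.0436), against 8.24%. It called 0 members in the other 3 comparisons, against 5.51% for laparotomy in PAD4 KO hosts, 5.58% for PAD4 KO against WT controls and 4.21% for PAD4 KO against WT hosts after laparotomy. Leaving out WT control replicate 2 leaves 1 library in that group, so this DESeq2 fit is given by effect size only. The members' median log2 fold change was then 0.05 for laparotomy in WT hosts and -0.04 for the difference. In the difference Rpl41 was at 0.42, and Rpl39l, whose reads lie mostly in PAD4 KO laparotomy replicate 2, was at 9.87.

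Counts of members whose libraries did not overlap between groups, in plain CPM, add the direction. After laparotomy in WT hosts 37 of 78 members were higher in both libraries than in both controls, against 28.1% of all genes, and 12 were lower, against 29.1%. In PAD4 KO hosts 7 were higher, against 19.9%, and 8 lower, against 22.7%. Between PAD4 KO and WT controls 11 were higher, against 19.4%, and 8 lower, against 25%. After laparotomy 6 were higher in PAD4 KO than in WT hosts, against 22.5%, and 22 lower, against 30.8%. Without WT control replicate 2, 42 of 78 members were higher after laparotomy in WT hosts than the lone control, against 41.7% of all genes. Of the 78 members 22 were lower, against 41%. PAD4 KO controls then had 16 higher, against 31.8%, and 13 lower, against 36.6%.

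The intervals show how large a rise these libraries leave room for. Over the 73 members of at least 10 CPM the median log2 fold change was 0.06 for laparotomy in WT hosts, -0.02 for laparotomy in PAD4 KO hosts and -0.06 for the difference. It was 0.08 for PAD4 KO against WT controls and 0.01 for the same after laparotomy. The median standard error was 0.121, and 0.171 for the difference. Leaving out 1 library moved the median of the difference, over all 78 tested members, from -0.05 to 0.05 without PAD4 KO control replicate 2, 0.00 without PAD4 KO laparotomy replicate 1, -0.14 without PAD4 KO control replicate 1 and -0.16 without PAD4 KO laparotomy replicate 2. The upper end of the 95% interval lay below 0.56, the members' median in culture, for 71, 71, 57, 66 and 66 of the 73 members in these 5 comparisons in the order given. That median belongs to another treatment with TMM factors, and it was 0.40 with library totals. Lower ends were not counted, and members that move together are not separate checks.

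**Figure D4:**
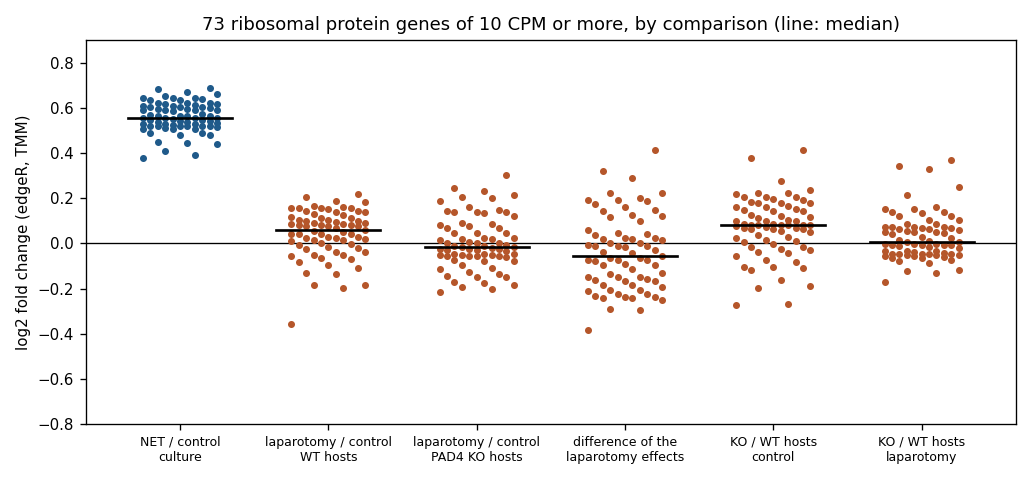
Log2 fold change (edgeR with TMM factors) of the 73 ribosomal protein genes of at least 10 CPM in the 6 comparisons, 1 point per gene, with a line at the median. The culture comparison (blue) lies between 0.38 and 0.69, and the 5 tumour comparisons (orange) have medians from -0.06 to 0.08.

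The members with the smallest p in each tumour comparison were few and partly thin in reads. Rps4l led 3 of the comparisons, with 12 and 90 reads in WT controls, 3 and 8 after laparotomy in WT hosts, 9 and 21 in PAD4 KO controls and 15 and 10 after laparotomy in PAD4 KO hosts. Its log2 fold change for laparotomy in WT hosts was -3.37 ± 0.91 (SE, edgeR adjusted p = 0.147), that for the difference between the laparotomy effects 3.93 ± 1.23 (SE, edgeR adjusted p = 0.153) and that for PAD4 KO against WT hosts after laparotomy 2.08 ± 0.90 (SE, edgeR adjusted p = 0.374). Most of its reads in WT hosts came from WT control replicate 2, the library with the most leukocyte and lung marker reads. Without that library, which leaves 1 WT control, the value for laparotomy in WT hosts was -2.46 and that for the difference 3.02. Rpl41, the shortest ribosomal protein, was at 714 and 724 CPM in WT controls and at 616 and 706 CPM after laparotomy. In PAD4 KO hosts it was at 598 and 623 CPM in controls and at 765 and 720 CPM after laparotomy. The PAD4 KO laparotomy libraries lay above the PAD4 KO controls, by 0.30 ± 0.10 on the log2 scale (SE, edgeR adjusted p = 0.207), and the difference between the laparotomy effects was 0.41 ± 0.14 (SE, edgeR adjusted p = 0.178). Rpl8, the second member in PAD4 KO hosts, was at 911 and 1019.5 CPM in controls and 1114 and 1139 CPM after laparotomy (0.25 ± 0.09, edgeR adjusted p = 0.258).

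Rps28, Rps23 and Rps14 complete the members with the smallest p. Rps28, a small protein at the mRNA exit site, was at 216 and 215 CPM in WT controls and at 142 and 192 CPM after laparotomy, with a log2 fold change of -0.36 ± 0.17 (SE, edgeR adjusted p = 0.308). Rps23, a decoding-centre protein, was at 385 and 425 CPM in WT controls and at 518 and 534 CPM in PAD4 KO controls, with 0.42 ± 0.15 (SE, edgeR adjusted p = 0.238). Rps14, a small subunit protein haploinsufficient in the human 5q- syndrome, was at 577 and 680 CPM and at 503 and 514 CPM in the same groups, with -0.27 ± 0.10 (SE, edgeR adjusted p = 0.265). In each of these the groups did not overlap, yet the adjusted p missed the threshold.

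The widest spread inside a group was between the 2 PAD4 KO control libraries. Of the 73 members, 69 were higher in replicate 2 than in replicate 1, with a median ratio of 1.19, whereas the median ratio of replicate 2 over 1 was 1.01 in WT controls, 1.03 in WT laparotomy and 1.07 in PAD4 KO laparotomy libraries. PAD4 KO control replicate 2 was the highest of the 8 tumour libraries for 43 of the 73 members, and replicate 1 the lowest for 35. Markers of other cells went both ways across this gap. In replicates 1 and 2, lung epithelial markers summed to 33.2 and 415 CPM, endothelial markers to 156 and 405 CPM and macrophage markers to 114 and 312 CPM. T, NK and B cell markers summed to 20.5 and 27.6 CPM. Lower in replicate 2 were fibroblast markers (7274 and 4275 CPM), pan-leukocyte markers (328 and 297 CPM) and neutrophil markers (408 and 349 CPM). Their part in the gap was not tested. The members' median log2 fold change for PAD4 KO against WT controls was 0.18 without PAD4 KO control replicate 1 and -0.04 without replicate 2. For laparotomy in PAD4 KO hosts it was -0.11 and 0.10. Without WT control replicate 2 the median was 0.06 for laparotomy in WT hosts and 0.07 for PAD4 KO against WT controls. Among tested members Rpl11 was the most variable between tumours after Rpl39l, Rps4l, Rpl30 and Rpl34, at 347 and 332 CPM in WT controls, 381 and 356 CPM in WT laparotomy, 380 and 422 CPM in PAD4 KO controls and 262 and 477 CPM in PAD4 KO laparotomy libraries. The 2 libraries of the last group were its lowest and its highest values.

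Set beside culture, tumour cells had lower ribosomal protein levels, as a description with no test, since tumour and culture libraries also differ in sorting and host cells, which cannot be told apart from growth in the lung. Fibroblast markers in particular were at 3094 CPM or more in every tumour library and at 157 CPM or less in every culture. Cultured MC-38 cells had reads of some of these genes too, such as Pdgfra at 86.5 to 90.5 CPM in controls. Whether host cells or MC-38 cells gave the reads in tumours was not tested. The mean share in tumours was 0.782 of that in control culture. Of 78 members 34 were lower in all 8 tumour libraries than in all 3 control cultures, against 27.5% of all genes, and 4 were higher (Rpl15, Rpl24, Rps27l and Rps4l), against 30.2%. Compared with all 6 cultures the same count of 34 was lower, against 20.7%. That count could hardly fall, since 73 of 75 tested members were higher in every NET library than in every control, so it adds nothing. Only Rps4l was higher than in all 6 cultures, against 27.1%. The ratio of the tumour mean to the control culture mean had a median of 0.818 over the 73 members of at least 10 CPM and was below 1 in 62. It ran from 0.513 in Rps21, 0.522 in Rpl13a and 0.560 in Rps15 to 1.13 in Rpl15, 1.31 in Rpl24 and 1.36 in Rps27l. Rps27l thus was at 80.2 to 95.04 CPM in every tumour library, above its control culture values of 60.7 to 70.0 CPM and around its NET culture values of 76.2 to 85.2 CPM. Rplp0 shows the opposite, at 2125 to 2525 CPM in tumours, below every culture library.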

How the data were processed

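RNA was sequenced from 6 culture and 8 tumour libraries. The deposited values are counts per gene symbol made by the authors; Trimmomatic, STAR and mm10 are named per the submitters' processing notes. Their versions and the annotation: not given in the sources used here. The unstranded column was used; summary lines that name no gene (25.2 to 45.3% of all reads) were left out. CPM is a count per 1e+06 gene counts of a library. Genes were tested with edgeR 4.0.16 (R 4.3.3, limma 3.58.1; filterByExpr, TMM, robust quasi-likelihood fit), with Benjamini-Hochberg adjustment over all genes tested and a threshold of 0.05, on the 6 culture libraries (11753 genes) and on the 8 tumour libraries in 4 groups (14615 genes). Intervals cover these libraries only. Scripts were tested on simulated data. Promoters are RefSeq's (GRCm38.p6); transcripts are GENCODE vM21, with 80 of 81 members matched (not Rps4l). Windows shared between genes were 50 bases long.

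Members, lists and tests were chosen with earlier results of these data known. Named were the 4 members with the largest change in each direction past the threshold, or the 2 with the smallest p where none passed; the 3 highest and the 3 lowest in CPM, the 5 most variable in tumours, the paralogs, Rpl5, Rpl11, Rps19, Rplp0, Rplp1, Rplp2, Rpsa and Rps6; and 2 genes by p of each other list. Rpl27, Rps29, Snhg17, Vim, Rpl7l1 and the members at the ends of the ratio to culture were named after their values were seen. Alternatives were DESeq2 1.42.0, RLE factors, library totals, TMM without the members, no filter, the strand-specific column, 1 fit of all libraries, the compared groups alone, a replicate block and leaving out each library.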

Additional observations from a re-analysis of the deposited data

How the results depend on the processing

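With NET chromatin 75 members were higher in every alternative tried except library totals (74) and the fit of all 14 libraries (73), and the 6 fits that leave out 1 library each gave 75 to 75. Of all genes, 14% were called higher with library totals, 12.9% in the fit of all 14 libraries and 17.6% without the filter. The share was 21.2 to 27.1% in the other alternatives. Leaving out 1 tumour library leaves 1 library in its group, so those edgeR fits are read by effect size only. The members' median log2 fold change then ran from -0.16 to 0.18 over the 5 comparisons. DESeq2 without WT control replicate 2, added after seeing the data, also left 1 library in that group. Its member medians were 0.05 for laparotomy in WT hosts, -0.04 for the difference and 0.08 for PAD4 KO against WT controls. With all tumour libraries, DESeq2 called 1 member lower after laparotomy in WT hosts (Rps4l), against 8.42% of all genes called. The fit of all 14 libraries also called 1 lower there (Rps4l), against 10.1%. In the difference between the laparotomy effects DESeq2 called 1 higher (Rpl41), against 8.24%. Over all genes DESeq2 called 296 to 741 higher and 208 to 911 lower per tumour comparison, against 3 to 60 and 0 to 39 by edgeR; the cause was not tested. The members' share was 5.98% in control culture, 8.01% with NET chromatin, 4.59% in WT controls and 4.71% in WT laparotomy without the 10 most abundant other genes. With reads in no feature added to the total, an alternative chosen after seeing the data, it was 4.49, 5.43, 3.74 and 3.78% in these groups, 3.79% in PAD4 KO controls and 3.78% in PAD4 KO laparotomy; both denominators change the share by construction. With the replicate block 75 members were higher in culture (3180 genes in all) and 0 in tumours, where 0 to 0.404% of all genes were called. Same-numbered culture libraries correlated at 0.09, 0.09 and -0.03, so the numbers give no pairing, and not every library correlated best with its own number. WT and PAD4 KO control numbers correlated at 0.36, and the block took the genes called between them from 17 to 0. PAD4 KO control and laparotomy numbers correlated at -0.12; a block with these numbers crossed, also added after seeing the data, called 0 members and 74 genes higher, against 35 with the block as numbered and 50 without. Members below 10 CPM rest on few reads, and no change in them smaller than their large errors could be seen.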
